A study of Mus musculus with 30 samples.

Results

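The Hsd3b genes encode the 3-beta-hydroxysteroid dehydrogenases, and 7 of the 48709 genes in the deposited count tables are described here: Hsd3b1, Hsd3b2, Hsd3b3, Hsd3b4, Hsd3b5, Hsd3b6 and Hsd3b7. The family was selected on the measured counts of the liver libraries, in which Hsd3b1 was higher in Ctcf heterozygous than in wild-type (WT) mice. The members' values in that liver comparison are therefore a description and carry no test. Other genes named there were tested. The RNA came from adult C57BL/6 mice, from spleen, muscle (the quadriceps femoris), liver, kidney and brain. Each of the 5 tissues had 3 WT libraries and 3 libraries of the genotype Ctcf+/-, 30 libraries in all. Ctcf+/- mice carry 1 working copy of Ctcf, the gene of the DNA-binding protein CTCF that shapes chromatin loops, in every cell. The design names 3 mice of each genotype, but the labels do not say which libraries came from the same mouse, so p-values measure the spread between these libraries. Sex is not among the labels.

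Enzymes of this family oxidise the hydroxyl group of a steroid precursor and shift its double bond, a step on the way to progesterone, glucocorticoids, mineralocorticoids and androgens. Hsd3b1 is the main form of the mouse adrenal cortex and gonads, Hsd3b2 and Hsd3b3 are known from kidney and liver, and Hsd3b6 from placenta and the adrenal zona glomerulosa. Hsd3b4, a kidney form, and Hsd3b5, a liver form higher in males, act mainly as ketosteroid reductases. Hsd3b7 is a distant relative that acts on sterols in bile acid synthesis.

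Total counts ranged from 49.8 M to 131.6 M fragments per library. Levels are given as CPM, counts per 1 M fragments, and 3 counts corresponded to between 0.0228 and 0.0602 CPM, the limit that a count of 0 allows for counting error only. Ctcf itself was lower in the heterozygous libraries of all 5 tissues, with no overlap between the groups and log2 differences from -0.70 in kidney to -0.57 in muscle. Ctcf passed an adjusted p of 0.05 in brain alone (0.0259, edgeR quasi-likelihood test with Benjamini-Hochberg adjustment). Xist RNA was high in all 30 libraries. Of 4 Y-linked genes 3 were detected in each WT spleen library, at 8 counts or fewer (Ddx3y had 5, 8 and 3), and at most 1 in any other library. The heterozygous kidney libraries 2 and 3 stood apart, with transcripts of the adrenal cortex such as Cyp21a1 at up to 1778 counts. Spleen and muscle libraries held traces of other tissues: summed hepatocyte markers were 34.4 to 44.2 CPM in WT spleen and at most 0.344 CPM in heterozygous spleen. Summed kidney tubule markers were 0.764 to 1.18 CPM in WT spleen and 12.2 to 24.6 CPM in heterozygous spleen, where Hsd3b2 had 5, 6 and 2 counts against 2, 0 and 2 in WT. In muscle they were 10 to 72.2 CPM in WT and at most 5.77 CPM in heterozygous libraries. The part of these traces in the member counts was not tested.

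Of the 7 genes, 6 lie in 1 cluster of 361 kb on chromosome 3 of GRCm38 (98499071 to 98859794), all on the minus strand, in the order Hsd3b4, Hsd3b5, Hsd3b2, Hsd3b3, Hsd3b6 and Hsd3b1. Hsd3b1 occupied 98852194 to 98859794 in 5 exon blocks of 1855 bases. Hsd3b7 lies on chromosome 7 (127800604 to 127803802, plus strand). Coding sequences of GENCODE M21 transcripts were 1122 bases long in the 6 clustered genes and 1110 in Hsd3b7. To show how close the genes are that the counting had to keep apart, the first 90 coding bases are given 5′ to 3′, with capitals at the bases that differ from Hsd3b1:
Hsd3b1: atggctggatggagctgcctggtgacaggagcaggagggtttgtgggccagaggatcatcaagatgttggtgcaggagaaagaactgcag
Hsd3b2: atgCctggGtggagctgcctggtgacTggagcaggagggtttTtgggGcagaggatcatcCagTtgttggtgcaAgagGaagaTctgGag
Hsd3b3: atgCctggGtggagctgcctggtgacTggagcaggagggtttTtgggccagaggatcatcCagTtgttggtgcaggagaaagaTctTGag
Hsd3b4: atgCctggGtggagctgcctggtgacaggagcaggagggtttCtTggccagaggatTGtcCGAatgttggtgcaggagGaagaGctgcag
Hsd3b5: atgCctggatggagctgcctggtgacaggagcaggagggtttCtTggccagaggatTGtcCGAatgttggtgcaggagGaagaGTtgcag
Hsd3b6: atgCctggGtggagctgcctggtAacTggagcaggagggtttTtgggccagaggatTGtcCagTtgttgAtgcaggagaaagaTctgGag

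In this stretch Hsd3b3 differed from Hsd3b1 at 9 bases, Hsd3b6 at 12, and Hsd3b2, Hsd3b4 and Hsd3b5 at 11 each. Hsd3b7 differed at 60 of the 90 positions when set base against base without gaps. Over the whole coding sequence the clustered genes fell into a pair of groups. Hsd3b2, Hsd3b3 and Hsd3b6 shared 94.4 to 95.1% of aligned bases, and Hsd3b1 shared 89.3% with Hsd3b2 and Hsd3b3 and 1010 of 1122 bases with Hsd3b6. Hsd3b4 and Hsd3b5 shared 95.2% with each other and 80.5 to 82.7% with the other clustered members. A pair of unlisted gene models in the same cluster belong with the latter group: Gm10681 had the same base as Hsd3b4 at all 1122 coding positions, and Gm4450 matched it at 1118 of 1122 bases (99.6%). Both carry the same first 90 bases as Hsd3b4.

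**Figure D1:**
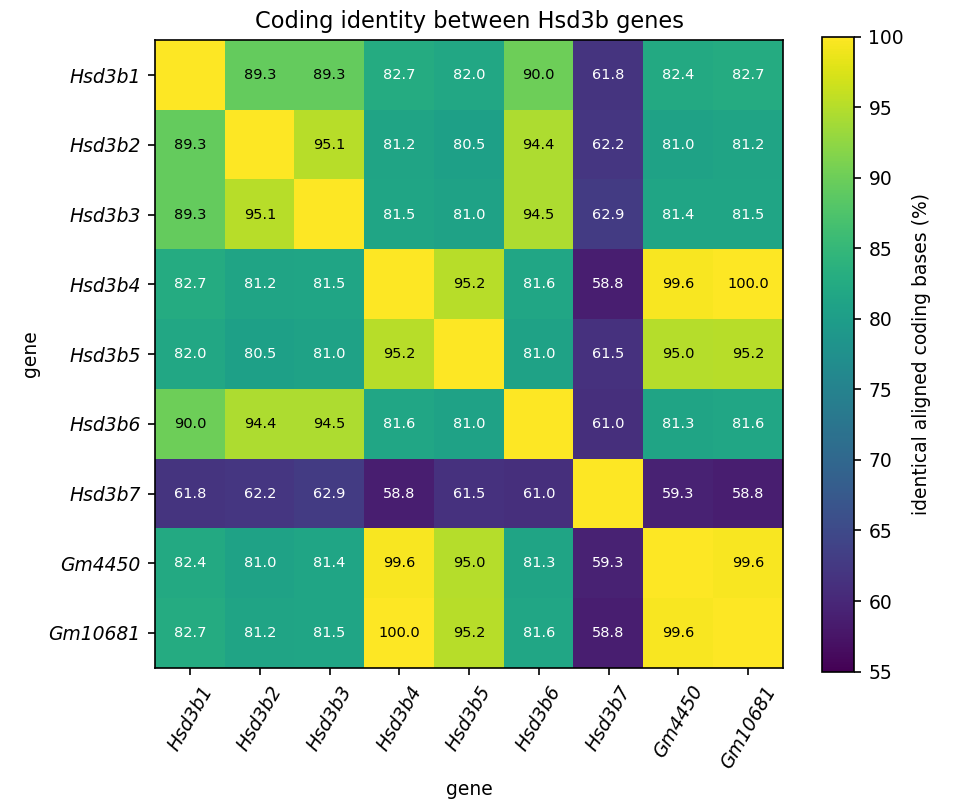
Heat map of the percentage of identical aligned coding bases (colour, 55 to 100%) for each pair of the 7 listed genes and of the gene models Gm4450 and Gm10681. Hsd3b4, Gm4450 and Gm10681 shared at least 99.6% with one another, Hsd3b2 and Hsd3b3 reached 95.1%, and Hsd3b7 stayed at 62.9% or less with every other gene.

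This likeness matters because the authors' counting dropped every fragment with more than 1 alignment or more than 1 overlapping gene. All 1588 stretches of 50 bases in the transcripts of Hsd3b4 also occurred in another gene's transcripts, and so did all 1538 stretches of 100 bases. For Hsd3b1 the shares were 4.86% at 50 bases and 0.0% at 100 bases, so most of its sequence is its own. Hsd3b2 shared 26.9% of its stretches of 50 bases, Hsd3b3 8.73%, Hsd3b5 21.2% and Hsd3b6 15.7%, and at 100 bases these shares were 8.28%, 4.67%, 7.79% and 3.11%. Hsd3b7 was affected in another way: 2746 of its 2769 exon bases (99.2%) overlapped exons of Gm49388 on the same strand or 9430064I24Rik on the other, leaving 23 bases. Its counts therefore say little about its level. Overlap with Zfp697, on the opposite strand, touched 2.68% of the exon bases of Hsd3b2 and 4.39% of those of Hsd3b3. The read length is not given in the sources used here, and its bearing on these losses was not tested.

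The region before the start of Hsd3b1 is printed because CTCF is the factor whose gene dose differed and Hsd3b1 the gene on which the family was selected. That of Hsd3b7 is printed because it alone among the 7 held a match to the CTCF core motif. Both are the 250 bases before the RefSeq start (GRCm38.p6), 5′ to 3′ on the gene's strand, chr3:98859795-98860044 for Hsd3b1 and chr7:127800359-127800608 for Hsd3b7. Capitals mark TATTTAA in Hsd3b1, which begins 30 bases before the start, and the CTCF core match in Hsd3b7, which begins 101 bases before it:
Hsd3b1: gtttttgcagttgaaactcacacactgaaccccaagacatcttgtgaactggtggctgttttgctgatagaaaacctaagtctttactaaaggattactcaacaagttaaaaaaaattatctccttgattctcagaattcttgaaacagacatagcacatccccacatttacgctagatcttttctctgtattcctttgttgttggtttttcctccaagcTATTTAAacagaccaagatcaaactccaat
Hsd3b7: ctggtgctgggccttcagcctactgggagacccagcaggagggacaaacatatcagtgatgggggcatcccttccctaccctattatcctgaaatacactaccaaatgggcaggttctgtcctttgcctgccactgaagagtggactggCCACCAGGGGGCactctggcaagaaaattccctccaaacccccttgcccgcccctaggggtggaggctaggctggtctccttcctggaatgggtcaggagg

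All 7 genes had an entry among the 27025 RefSeq promoters. Searched on both strands, TATTTAA occurred in 4.37% of all promoters and in those of Hsd3b1, Hsd3b3, Hsd3b4 and Hsd3b5. TATAAA occurred in 13.0% and AGGTCA, the half-site of many nuclear receptors, in 13.8%, and neither occurred in any of the 7. The CTCF core occurred in 0.511% of promoters. These motifs were picked after the sequences had been seen, the motifs do not overlap one another in the printed stretches, and a match is a description of letters only.

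Across WT tissues the family was a kidney and liver family. The summed level of the 7 listed genes, which leaves out Gm4450, was scaled within each tissue. It was 88.5 to 101 CPM in WT kidney libraries and 137 to 218 CPM in WT liver libraries. It was at most 0.31 CPM in any brain, muscle or spleen library of either genotype. Sums scaled in this way do not give the size of the difference between tissues. Scaled over all 30 libraries, Hsd3b3 was at 231 CPM in WT liver and 29.4 CPM in WT kidney. Hsd3b2 was at 35.9 CPM in WT liver and 44.7 CPM in WT kidney. Within these 2 tissues different genes led among the 7 listed. To compare genes with one another, levels were divided by exon length (CPM per kb, scaled over all 30 libraries). WT kidney held Hsd3b2 at 12.1 ± 1.74 CPM per kb and Hsd3b3 at 4.6 ± 0.5 (mean ± SD, n = 3, as in all such values). WT liver held Hsd3b3 at 36.1 ± 6.96 CPM per kb, Hsd3b2 at 9.71 ± 1.48, Hsd3b5 at 2.33 ± 1.06 and Hsd3b1 at 1.05 ± 0.334. Fewer cells of a type and less RNA per cell cannot be told apart in such bulk tissue.

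**Figure D2:**
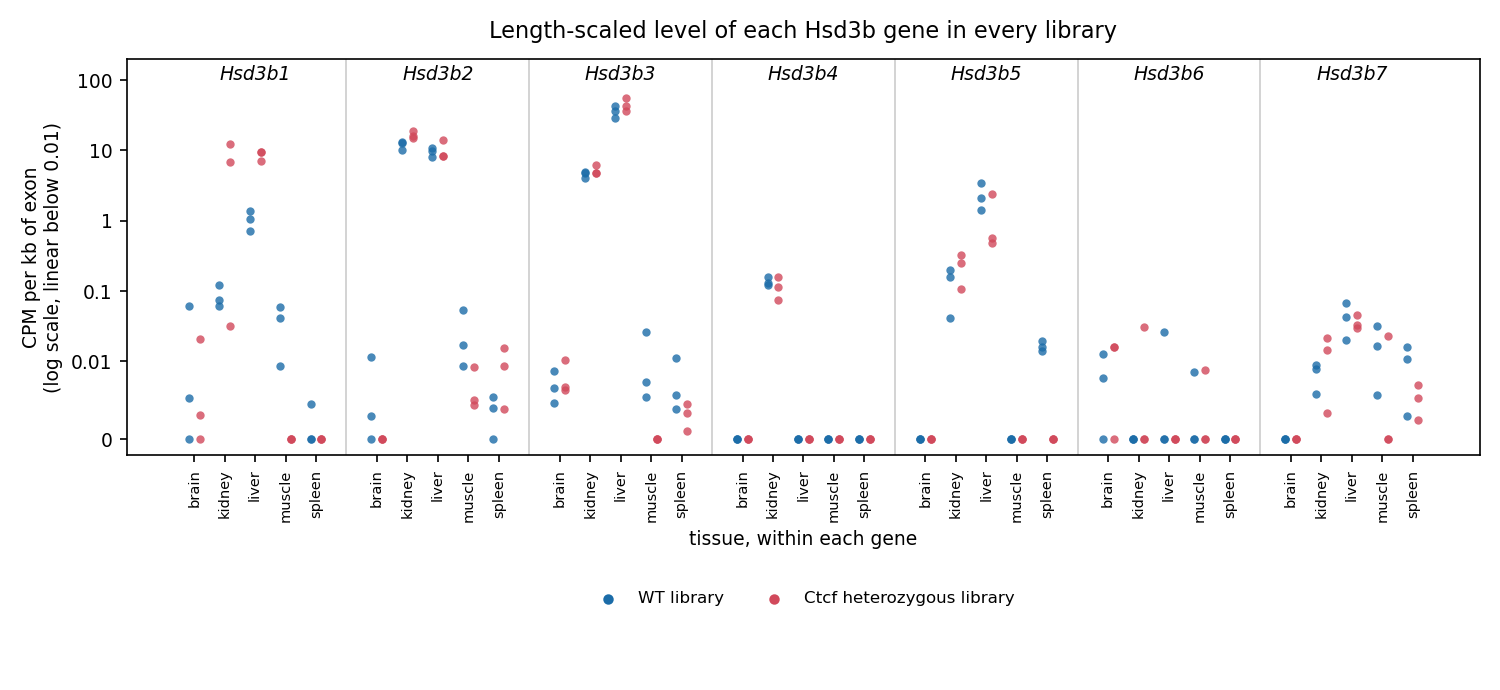
Level of each listed gene in every library, in CPM per kb of exon on a log axis that is linear below 0.01, by tissue within each gene; each point is 1 library, blue for WT and red for Ctcf heterozygous. Hsd3b2 and Hsd3b3 were high in kidney and liver, Hsd3b4 was found in kidney only, and Hsd3b1 in WT libraries was highest in liver.

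Tests between WT tissues came from 1 edgeR fit of the 15 WT libraries, and 5 of the 7 genes passed its filter on low counts. They passed through kidney or liver, where they were high, so the counts of calls are given beside the background and support nothing by themselves. All 5 were called (adjusted p under 0.05) between brain and kidney, where 71.4% of the 22933 genes tested were called, and between kidney and spleen, where 75.5% were. Between kidney and liver 4 were called against 54.1% of all genes, and between kidney and muscle 4 against 64.4%. Liver gave 4 calls against brain (73.2% of all genes), 4 against muscle (64.2%) and 4 against spleen (72.9%). The 3 tissues with only traces of the family gave 1 call between brain and muscle (72.3% of all genes), 2 between brain and spleen (79.8%) and 2 between muscle and spleen (75.2%). These last calls rest on at most 13 counts per library. Called genes there were Hsd3b2 between brain and muscle, Hsd3b1 and Hsd3b5 between brain and spleen, and Hsd3b1 and Hsd3b2 between muscle and spleen.

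Hsd3b2 was at like levels in kidney and liver. Its WT kidney libraries held 13.4, 12.8 and 10.1 CPM per kb and its WT liver libraries 11, 8.11 and 9.99. The highest liver library lay above the lowest kidney library, so the groups overlapped. The kidney to liver log2 difference was 0.33 (SE 0.28, edgeR adjusted p = 0.344), and its direction towards kidney held under the other scalings. With total counts in place of TMM scaling it was 1.32 (adjusted p = 0.00178), a scaling under which the median gene also moved towards kidney by 0.99. In the heterozygous libraries it was 0.69 (adjusted p = 0.02). In brain, muscle and spleen Hsd3b2 had 13 counts or fewer per library: it was called higher in muscle than in brain (adjusted p = 0.0109) and did not pass between brain and spleen (adjusted p = 0.715). In the heterozygous libraries brain, at 0 counts, passed against spleen, at 5, 6 and 2 counts (adjusted p = 0.00216), and against muscle, at 1, 1 and 2 (0.0168).

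Hsd3b3 was the leading form in liver. The WT liver libraries held 36.1, 29.2 and 43.1 CPM per kb and the WT kidney libraries 4.03, 4.82 and 4.96. Every liver library was above every kidney library. The difference was 7.78-fold (log2 2.96 towards liver in the fit, SE 0.24, edgeR adjusted p = 1.02e-07), and 2.96 became 1.99 with total counts. Muscle, spleen and brain libraries held 11 counts or fewer. In WT no pair of them passed (adjusted p = 0.135 for brain and muscle, 0.0895 for muscle and spleen and 0.927 for brain and spleen). In heterozygous libraries, with at most 7 counts, all 3 pairs passed (edgeR adjusted p = 0.00268, 0.0354 and 0.0407).

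Hsd3b5, the reductase form of liver, was lower than both. Its WT liver libraries held 229, 78 and 136 counts and its WT kidney libraries 37, 28 and 8. On the CPM per kb scale these were 3.49, 1.41 and 2.09 in liver and 0.197, 0.159 and 0.0413 in kidney, with no overlap. The difference between liver and kidney was 17.4-fold (SE 0.55 on the log2 scale, edgeR adjusted p = 9.69e-05). The kidney to liver log2 difference was -4.12, against -3.12 with total counts and -2.35 in heterozygous libraries (adjusted p = 0.0204). Brain and muscle held 0 counts of Hsd3b5 in all libraries, so liver was at least 97 times as high as brain and at least 71.9 times as high as muscle, each against 3 counts per library. The WT spleen libraries held 3 counts each and the heterozygous ones 0, beside the hepatocyte markers named above, whose part in this was not tested.

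Hsd3b4 was found in kidney alone, at 24, 24 and 32 counts in WT and 31, 20 and 15 in heterozygous libraries. All 24 libraries of the other tissues held 0 counts. WT kidney was at least 3.19 times as high as liver and at least 9.18 times as high as spleen, against 3 counts per library. Since no stretch of 50 or 100 bases in its transcripts is its own, reads of that length from Hsd3b4 cannot be told apart from those of Gm10681, which had 56 to 109 counts in kidney libraries. The near copy Gm4450 was far above all listed members in kidney, at 99.5, 114 and 81.9 CPM per kb in the WT libraries against 12.1 for the mean of Hsd3b2. In liver Gm4450 had at most 1 count per library. Gm4450 was set beside the members for its sequence, after its values had been seen.

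Hsd3b1, the adrenal and gonadal form, was low in WT tissues. The WT liver libraries held 108, 70 and 55 counts and the WT kidney libraries 17, 26 and 14. On the CPM per kb scale all 3 WT liver libraries (1.37, 1.06 and 0.707) were above all 3 WT kidney libraries (0.0757, 0.124 and 0.0604). The difference was 11.8-fold towards liver (SE 0.64 on the log2 scale, edgeR adjusted p = 0.000261). With total counts the kidney to liver log2 difference was -2.56 in place of -3.56. In the heterozygous libraries it was -0.46 (adjusted p = 0.756). Kidney library 1 was at 0.0316 CPM per kb there, and libraries 2 and 3, which held adrenal cortex transcripts, were at 6.77 and 12.5, beside 6.99 to 9.67 in liver. WT kidney did not pass against muscle (edgeR adjusted p = 0.244), though all 3 kidney libraries were above the muscle ones (0.0587, 0.0416 and 0.00936 CPM per kb). With total counts all 5 members that passed the filter were called between these 2 tissues, Hsd3b1 included. Under that scaling the median gene also moved towards kidney by 1.16. Brain and muscle did not pass (edgeR adjusted p = 0.371). Kidney passed against brain (adjusted p = 0.0348), and spleen had 1 count in 6 libraries.

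Hsd3b6 had 7 counts or fewer in every library and Hsd3b7 8 or fewer, and neither passed edgeR's filter on low counts (filterByExpr) in the genotype and tissue fits given here. With a filter of 1 count, 6 members were called between WT brain and kidney, so at least 1 of this pair was called there on 3 counts or fewer per library. Brain held Hsd3b6 at 2, 0 and 1 counts in WT and 0, 5 and 3 in heterozygous libraries. Liver, the tissue where bile acids are made, held Hsd3b7 at 8, 2 and 5 counts in WT and 5, 6 and 3 in heterozygous libraries. For Hsd3b7 the overlap of its exons described above limits what could be counted.

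As shares of the summed family on the per kb scale, Hsd3b2 made up 70.7 ± 4.56% in WT kidney and 19.8 ± 1.68% in WT liver. Hsd3b3 made up 27.2 ± 4.87% in WT kidney and 73.3 ± 3.9% in WT liver. The shares of Hsd3b1 in WT were 0.501 ± 0.16% in kidney and 2.19 ± 0.803% in liver. The order of Hsd3b2 and Hsd3b3 was thus opposite in these 2 tissues and the same in every library of each tissue. In heterozygous kidney libraries 2 and 3 Hsd3b1 (20.8 and 37%) was above Hsd3b3 (19.2 and 14.2%). In heterozygous liver libraries 1 and 2 Hsd3b1 (17.6 and 15.6%) was above Hsd3b2 (15.1 and 13.5%).

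**Figure D3:**
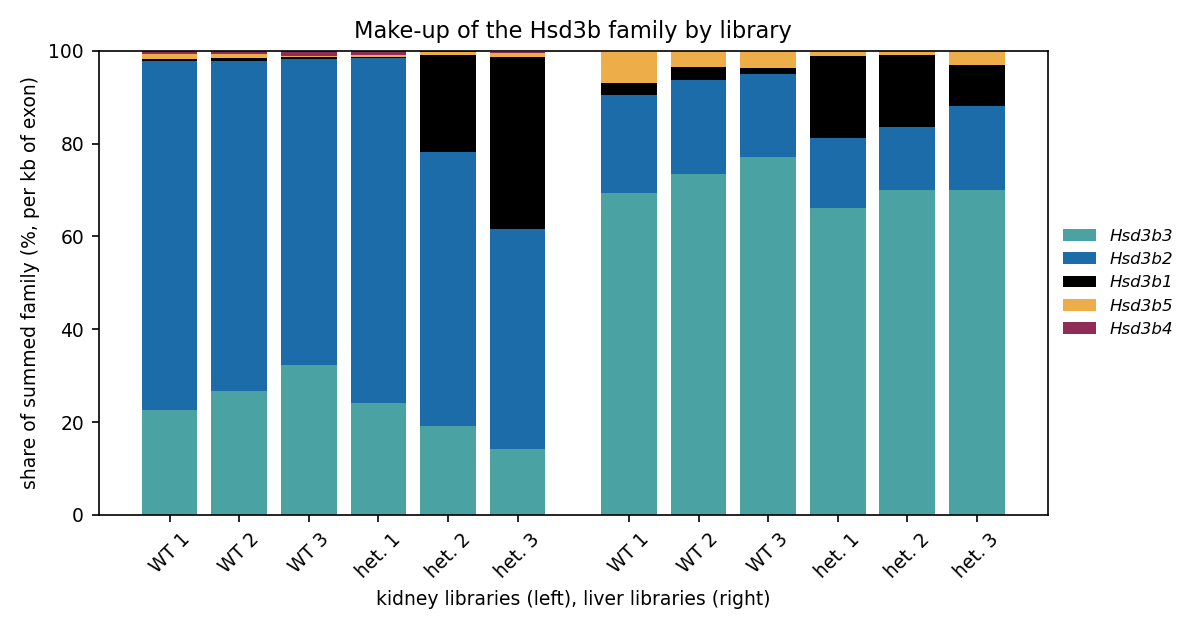
Stacked bars of the share of each gene in the summed family (percent, CPM per kb of exon) in the 6 kidney and 6 liver libraries. Hsd3b2 was the largest share in every kidney library and Hsd3b3 in every liver library, and the black block of Hsd3b1 reached 37% in heterozygous kidney library 3.

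In liver, the comparison that selected the family, the difference between genotypes was larger for Hsd3b1 than for its paralogues. Its levels, scaled within liver, were 1.59, 1.22 and 0.9 CPM in WT and 11.3, 11.3 and 8.38 CPM in heterozygous libraries. The groups did not overlap, and the means were 1.24 ± 0.347 and 10.3 ± 1.69 CPM, a log2 difference of 3.06 (SE 0.25). Of the 7 genes 4 passed the filter in liver. Over all genes 3 of 15584 (0.0193%) passed an adjusted p of 0.05, and nothing is read from this for the members because their choice used it.

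The other forms present in liver were closer between the genotypes. Hsd3b2 was at 25.5, 18.6 and 25.3 CPM in WT and 19.2, 19.5 and 33.8 CPM in heterozygous liver (log2 difference 0.06, SE 0.24), and the groups overlapped. Hsd3b3 was at 144, 116 and 189 CPM in WT and 146, 175 and 227 CPM in heterozygous liver (0.29, SE 0.22), with overlap. Hsd3b5 was at 3.38, 1.36 and 2.23 CPM in WT and 0.557, 0.471 and 2.42 CPM in heterozygous liver (-1.04, SE 0.63): heterozygous libraries 1 and 2 were below all WT libraries and library 3 was above 2 of them. Without heterozygous library 3 the value of Hsd3b5 was -2.17. Hsd3b2 changed sign to -0.26 without that library and to -0.07 without WT library 2. The share of Hsd3b1 in the family was 14 ± 4.56% in heterozygous liver, and Hsd3b3 still led with 68.7 ± 2.19%.

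**Figure D4:**
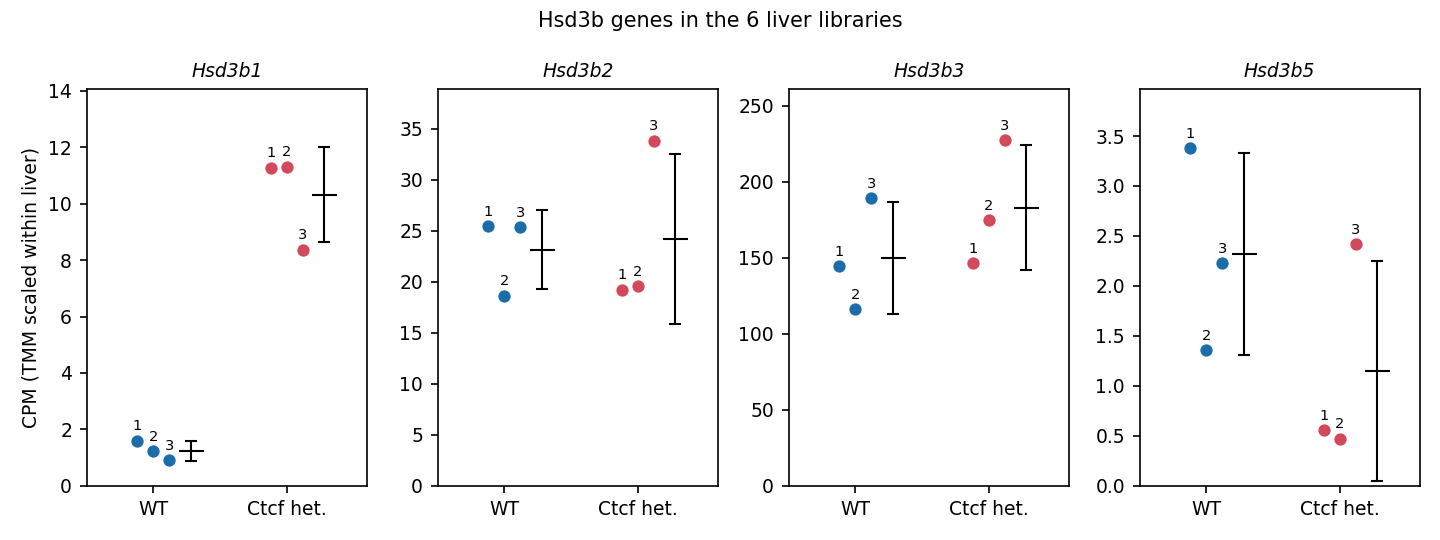
CPM of Hsd3b1, Hsd3b2, Hsd3b3 and Hsd3b5 in the 3 WT (blue) and 3 Ctcf heterozygous (red) liver libraries, on linear axes from 0; digits are replicate numbers, and the black mark with bars is mean ± SD. The groups are apart for Hsd3b1 (at most 1.59 CPM in WT, at least 8.38 in heterozygous liver) and overlap for the other genes.

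The adrenal markers were measured beside Hsd3b1, since it is an adrenal form. In liver Cyp11b2, Mc2r, Nr5a1 and Nr0b1 had 0 counts in all 6 libraries, Cyp11b1 and Cyp21a1 at most 1, and Cyp11a1 at most 3. Star was at 1.59 to 2.17 CPM with overlapping groups. Akr1b7 was at 1.25, 2.33 and 2.93 CPM in WT and 3.04, 3.14 and 4.73 CPM in heterozygous liver, without overlap and without passing (log2 difference 0.74, SE 0.33, edgeR adjusted p = 1), and its part in the Hsd3b1 values was not tested. The summed list of 10 adrenal markers was 55.6 to 65.7 CPM in WT and 54 to 69.8 CPM in heterozygous liver, of which Mrap, also made in liver, gave 49.4 to 63.6 CPM. Summed hepatocyte markers were 150000 to 207000 CPM in WT and 150000 to 168000 CPM in heterozygous liver.

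Genes around the members in the pathway gave few differences in liver. Of 20 genes of steroid hormone synthesis 11 passed the filter and 0 were called by edgeR, DESeq2 or limma-voom, and 0 had an unadjusted p under 0.05 (median log2 difference -0.12, against -0.01 over all genes). Of 17 genes of bile acid synthesis 16 passed and 0 were called by the same 3 tools (median -0.08). An unadjusted p under 0.05 was found for 2 of them, Cyp39a1, an oxysterol hydroxylase (-0.67, SE 0.15), and Nr0b2, a nuclear repressor of bile acid synthesis (-0.86, SE 0.23). Sterol dehydrogenase relatives of the family, Nsdhl of cholesterol synthesis and Sdr42e1, were both tested, and 0 were called or had an unadjusted p under 0.05.

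Because Hsd3b5 is known to be higher in male liver, lists of sex-biased liver genes were set beside it. Of 16 male-biased genes 13 passed, 0 were called by any of the 3 tools, 3 had an unadjusted p under 0.05, and 3 had a log2 difference above 0 (median -0.22). Slco1a1, an organic anion transporter of this list, was at 67.4, 46.4 and 32.1 CPM in WT and 6.83, 7.61 and 29 CPM in heterozygous liver (-1.75, SE 0.55, edgeR adjusted p = 0.829). As for Hsd3b5, heterozygous library 3 was the highest of its group. Of 19 female-biased genes all 19 passed, 0 were called by these tools, 3 had an unadjusted p under 0.05 and 10 had a log2 difference above 0 (median 0.07).

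One of those female-biased genes is the next gene beyond Hsd3b1 on chromosome 3, Hao2, a peroxisomal hydroxyacid oxidase. Its levels were 83, 139 and 84.2 CPM in WT and 176, 173 and 180 CPM in heterozygous liver. The heterozygous libraries were all above the WT libraries, with a log2 difference of 0.79 (SE 0.21), and Hao2 did not pass (edgeR adjusted p = 0.666). Of 38 genes within 500 kb of the cluster 7 passed the filter in liver, 0 were called by edgeR, DESeq2 or limma-voom, and 1, Hao2, had an unadjusted p under 0.05 (median 0.17).

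In kidney the same gene was high in 2 libraries. Hsd3b1 was at 0.178, 0.293 and 0.142 CPM in WT and 0.0739, 16.2 and 29.2 CPM in heterozygous kidney. Heterozygous library 1 was below all WT libraries and libraries 2 and 3 were far above them, so the groups overlapped. The log2 difference was 6.22 (SE 1.52, edgeR adjusted p = 0.419). It passed with DESeq2 (adjusted p = 0.0131), in 1 fit of all 30 libraries (0.0326) and without heterozygous library 1 (log2 6.80, adjusted p = 0.00332). Over the other alternatives its adjusted p was 0.0595 to 0.994, and without heterozygous libraries 2 and 3 the log2 difference was -1.45 (adjusted p = 0.994).

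Those 2 libraries also carried genes of the adrenal cortex, which lies against the kidney. Cyp21a1, the steroid hydroxylase on the way to corticosterone, had 42, 9 and 27 counts in WT and 1, 661 and 1778 in heterozygous kidney. Cyp11b1, which completes corticosterone, had 1, 6 and 17 counts in WT and 2, 531 and 854 in heterozygous kidney. Cyp11a1, which cuts the cholesterol side chain, had 23, 20 and 26 counts in WT and 13, 330 and 989 in heterozygous kidney. In each case heterozygous library 1 was below every WT library or, for Cyp11b1, within their range, and libraries 2 and 3 were above them. Nr5a1, the factor that specifies steroidogenic cells, had at most 5 counts in the other 4 kidney libraries and 62 and 151 in these. All 10 adrenal markers were detected in each of the heterozygous libraries, and their sum was 7.19 to 10.1 CPM in WT and 8.19, 38.1 and 70.8 CPM in heterozygous kidney.

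Of the 10 adrenal markers 8 passed the filter in kidney and all 8 had a log2 difference above 0 (median 1.57). None of the 8 was called by edgeR, DESeq2 or limma-voom (0 genes), while 7 had an unadjusted p under 0.05. Mrap was not among these 7 and did not follow libraries 2 and 3 alike. It was at 3.3, 4.29 and 0.224 CPM in WT and 1.52, 1.98 and 4.67 CPM in heterozygous kidney. Hsd3b6 had 7 counts in heterozygous library 3 and 0 in the other 5, library 2 included. Cyp11b2, the aldosterone enzyme of the zona glomerulosa where Hsd3b6 is known, had 263 counts in that library, 6 in library 2 and 2 or fewer in the others. The part of adrenal tissue in the Hsd3b1 and Hsd3b6 values of kidney was not tested.

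**Figure D5:**
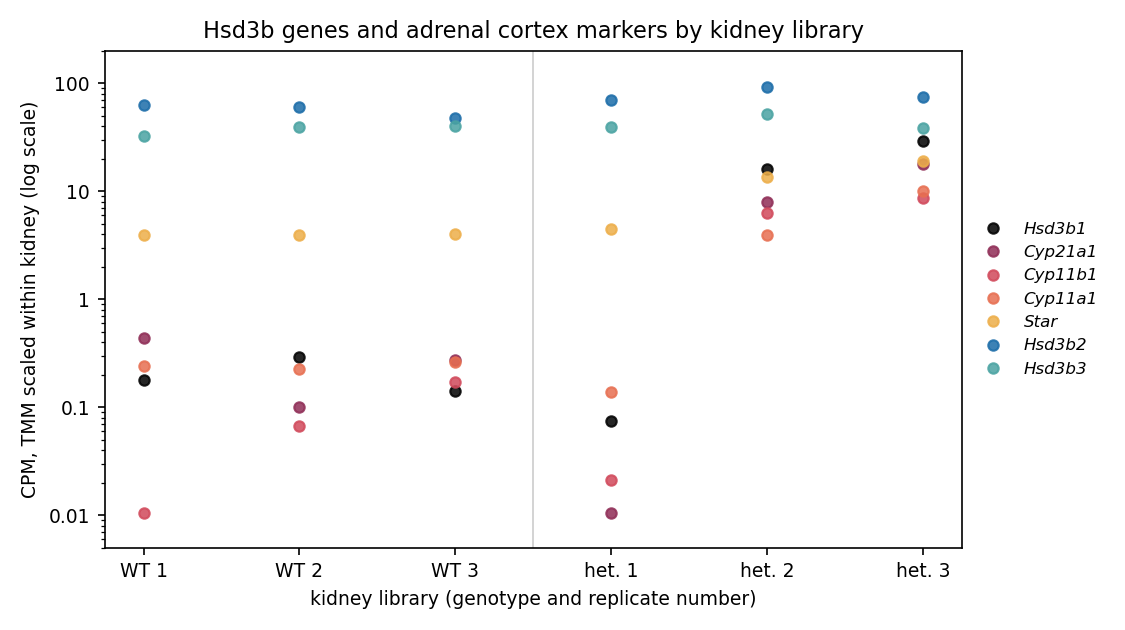
CPM on a log axis of Hsd3b1 (black), Hsd3b2, Hsd3b3 and the adrenal cortex markers Cyp21a1, Cyp11b1, Cyp11a1 and Star in each of the 6 kidney libraries; each point is 1 gene in 1 library. Hsd3b1 and the markers were high together in heterozygous libraries 2 and 3, where Hsd3b1 reached 16.2 and 29.2 CPM, and Hsd3b2 and Hsd3b3 stayed between 32.7 and 91.8 CPM in all 6.

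The kidney forms of the family differed less. Hsd3b2 was at 62.7, 60.5 and 47.6 CPM in WT and 69.5, 91.8 and 74.5 CPM in heterozygous kidney. All heterozygous libraries, library 1 with its low adrenal markers included, were above all WT libraries. The share of all genes with groups apart in this way was not counted, so nothing is read from this for Hsd3b2. The log2 difference was 0.47 (SE 0.14) and did not pass (edgeR adjusted p = 0.529; 0.128 to 1 over the alternatives, in all of which it was above 0). Without heterozygous libraries 2 and 3 it was 0.29. Hsd3b3 was at 37.5 ± 4.15 and 43.1 ± 7.34 CPM with overlapping groups (0.20, SE 0.14, adjusted p = 0.959). Hsd3b4 (-0.24, SE 0.35, adjusted p = 0.999) and Hsd3b5 (0.77, SE 0.57, adjusted p = 0.973) also overlapped, and their signs changed without heterozygous libraries 2 and 3. Hsd3b5 was highest, at 62 counts, in heterozygous library 3, where the hepatocyte gene Alb was at 218 CPM against 8.79 to 41.3 CPM in the other 5 kidney libraries, and the part of this in the Hsd3b5 value was not tested.

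In kidney, then, 5 of the 7 genes passed the filter and 0 were called by edgeR, where 4 of 18937 genes (0.0211%) were called. A fit blocked on replicate number called 21 genes in kidney, and still 0 members. An unadjusted p under 0.05 was found for 2 of the 5, Hsd3b1 and Hsd3b2. The share of all tested genes with such a p was not counted, so nothing is read from this. DESeq2 called 1 member, where it called 175 genes in kidney, and limma-voom called 0 members, where it called 4 genes. Of the 20 genes of steroid hormone synthesis 16 passed in kidney and 0 were called by the 3 tools (median 0.12). The 5 with an unadjusted p under 0.05 were Cyp11a1, Cyp11b1, Cyp21a1, Mc2r and Star, all of which are adrenal markers too. Of 14 neighbours of the cluster that passed, 0 were called by the 3 tools or had an unadjusted p under 0.05, and Gm4450 was at 225 ± 37.4 and 255 ± 49.2 CPM (0.18, SE 0.17).

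No listed gene passed the filter in the genotype fits of brain, muscle and spleen, where 0.0157%, 0.0249% and 0.242% of all tested genes were called (3 genes in brain, and 22 in the blocked fit). Muscle held Hsd3b1 at 7, 5 and 1 counts, Hsd3b2 at 4, 13 and 2 and Hsd3b3 at 3, 11 and 2 in WT. The heterozygous muscle libraries held 0 counts of Hsd3b1 and Hsd3b3 and 1, 1 and 2 of Hsd3b2. WT muscle library 2, the highest for Hsd3b2 and Hsd3b3, was also the highest for kidney tubule markers (72.2 CPM), whose part in these counts was not tested. In 1 fit of all 30 libraries Hsd3b3 passed in muscle (edgeR adjusted p = 0.0285) on these counts.

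A genotype effect shared by brain, kidney, muscle and spleen was tested in 24 libraries with tissue in the model. Of the 7 genes 5 passed the filter, all through their kidney counts, since the other 3 tissues held at most 13 counts of any member per library. The values below therefore rest mainly on kidney and do not show a shared effect or its absence. Of the 5, 0 were called by edgeR or DESeq2, where 15 of 24046 genes (0.0624%) were called by edgeR. Hsd3b1 had the 1 unadjusted p under 0.05 (log2 difference 3.59, SE 1.5, adjusted p = 0.726). This value carries the 1355 and 2888 counts of heterozygous kidney libraries 2 and 3, which held the adrenal markers, while muscle had 7, 5 and 1 counts in WT and 0 in heterozygous libraries, and brain and spleen at most 8. The values were 0.24 (SE 0.29) for Hsd3b2 and -0.18 (SE 0.27) for Hsd3b3.

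Over the 30 libraries, which share tissue and depth, the 3 genes most like each member were sought by Pearson r of log2(CPM + 1) among 18389 genes. For Hsd3b3 these were Gcgr, the glucagon receptor, Akr1d1, a steroid reductase, and Ugt2b34, a glucuronosyltransferase, each with r of 0.999. For Hsd3b2 they were Slc22a18, Spp2 and Cdhr5 (0.996, 0.996 and 0.995). For Hsd3b5 they were Cdx4, Sult2a7 and Nkx2-6 (0.969, 0.968 and 0.96). Hsd3b1 had no close match: Gm21399, Gm45909 and Atp8b5 reached 0.805, 0.801 and 0.8. These correlations follow mainly the difference between tissues and are given as a description. For Hsd3b1 they also carry differences within a tissue, such as 7, 1355 and 2888 counts in the heterozygous kidney libraries.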

How the data were processed

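Each tissue has its own deposited table of raw fragment counts, which the authors produced using featureCounts 1.5.0-p3 and Ensembl release 86 of GRCm38, per the file headers. Exons were counted on both strands alike, and fragments with several alignments or several overlapping genes were not counted, per the file headers. The submitters' processing notes list FastQC, STAR and DESeq2 without versions. Per the labels' protocols, RNA was extracted with TRIzol.

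The members and gene lists were chosen with earlier results of these data known. Per tissue, 6 libraries were fitted with edgeR 4.0.16 in R 4.3.3 (filterByExpr, TMM, quasi-likelihood F-test, Benjamini-Hochberg adjustment over all genes tested). A gene is called at an adjusted p under 0.05. The share of all genes with an unadjusted p under 0.05, or with groups that do not overlap, was not counted. Such counts and separations therefore support nothing by themselves. Log2 differences are heterozygous minus WT. The SE is approximate: the size of the log2 difference divided by the square root of the quasi-likelihood F statistic. Alternatives used DESeq2 1.42.0, limma 3.58.1 (voom), other scalings and filters, all 30 libraries, the replicate number as a block and left-out libraries. Leaving out heterozygous kidney libraries 2 and 3 together was added after seeing the data. Only the edgeR genotype fit within each tissue was run on simulated counts, with changes placed in genes of higher level. The other fits, and changes in genes of low counts, were not covered.

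Within groups, pairs of replicates gave a chi-square of 15.4 to 640 per degree of freedom (genes of at least 50 counts), far above sampling noise, and none were merged. Deviations from group means of same-numbered WT and heterozygous libraries correlated in brain (0.282, 0.495 and 0.641) and kidney (0.273, 0.237 and 0.227). Libraries of unlike number gave -0.542 to 0.28 in brain and -0.161 to -0.065 in kidney. The numbers were taken to pair libraries there by the data, not the labels, though less clearly in brain. In liver, muscle and spleen at least 1 same-numbered pair was under 0.1. The main fits did not use the pairing. Blocked fits are given for the members and for the number of all genes called, not for the gene lists.

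Named genes were the 7 members, neighbours within 500 kb, up to 5 genes of each list and tissue with the smallest p, Ctcf, and the 3 genes most like each member with at least 1 CPM. Shared stretches and identities were computed from GENCODE M21 transcripts with Biopython 1.88, and promoters are RefSeq's. Results of 1 gene list and of 1 neighbour are not reported here.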

Additional observations from a re-analysis of the deposited data

How the results depend on the processing

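By genotype in kidney, the number of members called was 0, and 1 with DESeq2 and with all 30 libraries in 1 fit; over left-out libraries it was 0 to 1. In muscle it was 0, and 1 with all 30 libraries in 1 fit. In brain, spleen and the shared effect it was 0 under every alternative run. No member passed the main filter in brain, muscle or spleen. Fits of all 6 libraries of these tissues that kept that filter could therefore only give 0. Between WT brain and muscle it was 1, with 0 under total counts, 2 with a filter of 1 count and 2 in heterozygous libraries (0 to 2 without a replicate). Between brain and spleen it was 2, with 1 under the replicate block (0 without any replicate). Between muscle and spleen it was 2, with 1 under total counts and 1 in heterozygous libraries (0 to 2 without a replicate). In the other 7 tissue pairs the count stayed within 1.5 times. The cause of these moves was not tested. The replicate block changed no member's call by genotype: in kidney Hsd3b1 was 5.63 (adjusted p = 0.152) and Hsd3b2 0.47 (0.221) with it.

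Values that changed sign were, in kidney, Hsd3b1 (-1.45), Hsd3b4 (0.21) and Hsd3b5 (-0.3) without heterozygous libraries 2 and 3, and Hsd3b4 (0.01, against -0.54 without library 1) without library 3; and in liver Hsd3b2, at -0.07 without WT library 2 and -0.26 without heterozygous library 3. Hsd3b1 in liver had a log2 difference of 2.87 to 3.29 over the alternatives. This is a description only, because that comparison selected the family. With total counts in place of TMM, WT levels moved from 1.94 to 1.2 CPM for Hsd3b1 in liver, from 44.7 to 56.8 for Hsd3b2 in kidney, from 35.9 to 22.8 for Hsd3b2 in liver, from 29.4 to 37.3 for Hsd3b3 in kidney and from 231 to 148 for Hsd3b3 in liver. Without division by length, WT shares in kidney were 0.212% for Hsd3b1, 59.6% for Hsd3b2, 39.6% for Hsd3b3 and 0.269% for Hsd3b5, and in liver 0.737%, 13.2%, 84.6% and 1.31%, so the order of the leading pair held.

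Over all genes, calls by genotype were 3 in brain (28 with DESeq2, 22 with the block), 4 in kidney (175 and 21), 3 in liver (72 and 7), 4 in muscle (159 and 118) and 45 in spleen (187 and 0). In brain, muscle and spleen the members had at most 13 counts per library, with 3 counts standing at 0.0228 to 0.0602 CPM, so calls there, such as that of Hsd3b3 in muscle with all 30 libraries in 1 fit, rest on few counts.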
